A study of Mus musculus with 12 samples.

Results

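The cytosolic ribosomal protein genes encode the protein part of the ribosome, the particle that translates every mRNA outside the mitochondria. They were taken as the autosomal protein-coding genes of the RefSeq table (GRCm38.p6) whose symbol is Rpl or Rps followed by digits and at most one of the letters a, x, y or l, together with Rplp0, Rplp1, Rplp2 and Rpsa. The rule uses names alone and found 77 of 20665 autosomal protein-coding genes, 30 of the small subunit (Rps, Rpsa) and 47 of the large subunit (Rpl, including the 3 stalk genes). A further 4 genes that fit the symbol rule lie on chromosome X and were left out by it. The members were short, from 592 to 11774 bp with a median of 3183 bp, compared with a median of 17491 bp for all autosomal protein-coding genes.

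The measurement was chromatin immunoprecipitation followed by sequencing (ChIP-seq) from dorsal hippocampus of C57BL/6J mice with an antibody against crotonylated lysine in any protein (pan-Kcr). Crotonylation is an acyl mark of lysine side chains, found on histones among other proteins. The learning library came from mice trained in spatial object recognition, a task on the placement of objects, and the homecage library from mice that stayed in their cages. Each condition had 1 antibody library, and the labels do not give the age or sex of these mice, the time from training to dissection, whether animals were pooled, or whether the trained mice received crotonate. No difference between the conditions can therefore be tested, and every value below describes these 2 lists of called peaks. Bulk tissue mixes neurons and glia, so a peak cannot be assigned to a cell type. The deposited lists give peak position and width only, with no height and no read depth. The learning list held 15844 autosomal peaks with a median width of 306 bp and the homecage list 329508 with a median of 351 bp, so counts are compared with other genes within a list and not between lists.

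Ribosomal protein genes are transcribed at high and coordinated rates in nearly all cells, from short promoters that mostly lack a TATA box and often begin transcription inside a run of pyrimidines. The part of that run from the start onward becomes the first bases of the mRNA, the terminal oligopyrimidine (TOP) tract. Through this tract the mTOR pathway and the RNA-binding protein Larp1 control translation of these mRNAs. In neurons, ribosome supply and mTOR signalling are studied for their part in the protein synthesis that long-term memory requires. Nucleosomes on either side of the start of an active gene carry many histone acyl marks, and the start itself is usually poor in nucleosomes.

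The RefSeq promoter table holds a start for 57 of the 77 members. In the 57 promoters, from 250 bases before to 50 bases from the start, the start base lay in a run of 7 or more pyrimidines in 18 (31.6%), compared with 4.69% of 16457 autosomal protein-coding promoters of the same length. The start base was C in 20 members (35.1%, all promoters 13.8%). The ETS core CCGGAAG, the letters bound by factors such as Gabpa, was found on either strand in 23 members (40.4%, all promoters 12.3%). The SP1 core GGGCGG was found in 32 (56.1%, all promoters 47.3%), the YY1 core AAGATGGC in 5 (8.77%, all promoters 3.21%), the cAMP response element TGACGTCA in 5 (8.77%, all promoters 2.40%), the NRF1 core GCGCATGC in 2 (3.51%, all promoters 3.66%) and TATAAA in 5 (8.77%, all promoters 13.5%), each on both strands and with no overlap removed. These matches are letters and not measured binding. The median GC content of the promoters was 57.0% in the members and 56.7% in all genes.

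A run of 7 or more pyrimidines lay anywhere within 25 bases of the start in 34 members (59.6%, all promoters 28.7%). The starts with the longest runs are shown because the TOP tract comes from the part of the run from the start onward. Most members had no such run over the start base itself. Each line gives 20 bases before the start and 20 bases from it, 5′ to 3′ on the strand of the gene, from RefSeq on GRCm38.p6, with the run over the start base in capitals.
Rpl7a, chr2:26910787-26910826, strand plus: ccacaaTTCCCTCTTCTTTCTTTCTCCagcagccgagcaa
Rpl27a, chr7:109519175-109519214, strand plus: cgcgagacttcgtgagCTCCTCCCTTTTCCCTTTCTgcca
Rpl35, chr2:39005112-39005151, strand minus: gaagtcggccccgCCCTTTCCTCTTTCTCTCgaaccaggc
Rpl15, chr14:18270967-18271006, strand minus: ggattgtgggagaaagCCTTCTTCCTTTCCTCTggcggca
Rpl14, chr9:120571497-120571536, strand plus: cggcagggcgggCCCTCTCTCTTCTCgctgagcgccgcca
Rps10, chr17:27635225-27635264, strand minus: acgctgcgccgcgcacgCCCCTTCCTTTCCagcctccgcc
Rps18, chr17:33955646-33955685, strand minus: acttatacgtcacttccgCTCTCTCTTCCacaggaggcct
Rpl28, chr7:4792945-4792984, strand plus: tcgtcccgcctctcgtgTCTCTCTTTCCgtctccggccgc

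The run was 21 bases long at Rpl7a, 20 at Rpl27a, 18 at Rpl35, 17 at Rpl15, 14 at Rpl14, 13 at Rps10 and 11 at both Rps18 and Rpl28. These lengths include bases before the start, which are not in an mRNA that begins there, so they are not lengths of TOP tracts. Of these 8 genes, Rpl15, Rpl14, Rpl35 and Rps18 had a homecage peak just after the start, Rps10 had one before it, Rpl7a had one beyond its 3′ end, and Rpl27a and Rpl28 had none. None of the 8 had a learning peak. A run of at least 7 pyrimidines over the start was present in 16 of 45 members with a homecage peak and in 2 of 12 without. A run within 25 bases of the start was present in 27 of the 45 and in 7 of the 12. The ETS core was present in 16 of the 45 and in 7 of the 12.

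Few peaks covered a start. The 2 promoters with a homecage peak over the start base, Rplp2 and Rps23, are shown with the promoter of Rpl10a, where peaks of both lists lie just upstream and reach into the stretch shown. Each line runs from 250 bases before the start through 20 bases from it. In Rps23 and Rpl10a capitals mark the bases under a homecage peak. In Rplp2, where the peak covers the whole stretch, capitals mark the ETS core.
Rplp2, chr7:141447401-141447670, strand plus: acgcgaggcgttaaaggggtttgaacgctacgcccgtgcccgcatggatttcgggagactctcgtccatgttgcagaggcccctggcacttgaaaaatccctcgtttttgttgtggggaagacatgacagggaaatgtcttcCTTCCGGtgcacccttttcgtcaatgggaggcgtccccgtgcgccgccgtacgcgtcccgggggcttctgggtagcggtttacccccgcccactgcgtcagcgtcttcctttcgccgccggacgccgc
Rps23, chr13:90922872-90923141, strand plus: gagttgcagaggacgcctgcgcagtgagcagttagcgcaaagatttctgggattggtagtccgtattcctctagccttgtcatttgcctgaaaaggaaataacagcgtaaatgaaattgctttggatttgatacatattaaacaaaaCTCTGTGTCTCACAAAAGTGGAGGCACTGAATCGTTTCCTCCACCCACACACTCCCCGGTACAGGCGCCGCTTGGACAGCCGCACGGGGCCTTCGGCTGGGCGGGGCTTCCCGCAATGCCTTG
Rpl10a, chr17:28328221-28328490, strand plus: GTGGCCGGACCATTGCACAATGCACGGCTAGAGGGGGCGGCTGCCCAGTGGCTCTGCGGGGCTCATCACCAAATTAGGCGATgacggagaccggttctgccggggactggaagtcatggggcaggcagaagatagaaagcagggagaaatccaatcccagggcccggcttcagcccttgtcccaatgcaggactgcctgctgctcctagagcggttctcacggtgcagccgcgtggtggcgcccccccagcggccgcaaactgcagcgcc

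At Rps23 the homecage peak covered 123 of the 270 bases shown, at Rpl10a 82 and at Rplp2 all 270. The learning peak upstream of Rpl10a covered the first 50 bases of the stretch.

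A homecage peak was present at 62 of the 77 ribosomal protein genes, in the gene or within 1 kb of its ends (80.5%, exact 95% interval 69.9 to 88.7%). Over all autosomal protein-coding genes, most of them much longer, the share was 85.9%. For genes of similar length, taken as the other protein-coding genes in the same of 10 length classes and weighted to the members, it was 65.4%, so the members stood 15.1 percentage points higher (4.49 to 23.2 from the interval of the members' share). These intervals hold for counting error alone and take each gene as a separate draw, which neighbouring genes are not. The difference was smaller with 3 kb beyond the genes, at 5.11 points (-4.95 to 12.4). For the 19 members with no named pseudogene it was 8.58 points (-16.3 to 25.7). For the 48 members with no other protein-coding gene within 1 kb it was 11.0 points (-3.37 to 21.9). For the 57 members with a promoter entry it was 11.6 points (-1.21 to 21.3) in length classes alone. In classes of length and promoter GC the same 57 members gave 9.68 points (-3.15 to 19.4). Among the members, 35 had 1 homecage peak, 18 had 2, 9 had 3 and 15 had none. The members' windows held 225 homecage peaks per Mb, compared with 183 for genes of similar length and 144 for all genes. In the 100 kb on either side of the windows the means were 146 peaks per Mb for the members and 142 for all genes.

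The 98 homecage peaks of the members had a median width of 365 bp, compared with 351 bp for the whole autosomal list. The widest homecage peak per gene had a median of 430 bp over the 62 members with one (25th to 75th percentile 286 to 546 bp), compared with 469 bp (313 to 689 bp) for genes of similar length. Peaks of at least 500 bp were present at 20 members (26.0%, similar length 29.8%), a difference of -3.85 points (-13.2 to 7.40). With only the widest homecage peaks kept, as many as the learning list holds, 4 of 77 members had one (5.19%, similar length 9.51%). The members therefore stood above genes of similar length in the full homecage list and not among its wider peaks.

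**Figure D1:**
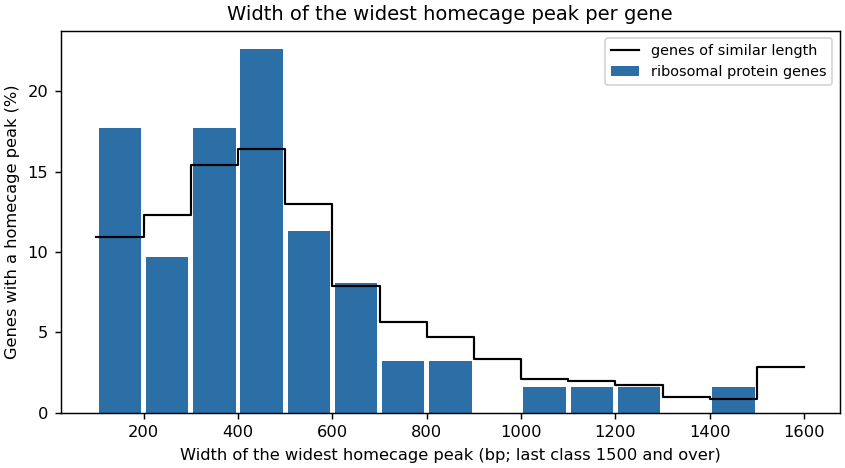
Width in bp of the widest homecage peak per gene, in classes of 100 bp (x axis), as the percent of genes with a homecage peak (y axis), for the 62 ribosomal protein genes with one (bars) and for genes of similar length (line, weighted to the members' length classes). The members' bars are above the line from 100 to 200 bp (17.7% against 10.9%) and from 300 to 500 bp, and below it from 700 to 1000 bp.

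The small-subunit genes carried a homecage peak at 26 of 30 (86.7%, 69.3 to 96.2%, similar length 64.1%) and the large-subunit genes at 36 of 47 (76.6%, 62.0 to 87.7%, similar length 66.4%). The intervals of the subunits overlap. All 3 stalk genes, whose products recruit the translation factors to the ribosome, had a homecage peak and no learning peak in the gene or within 1 kb. Rplp0 had 1 peak of 216 bp from 101 to 316 bp after its start and a second of 454 bp beyond its 3′ end, close to Gcn1. A learning peak lies 1 bp from this second peak, just past the 1 kb window of Rplp0, and is not counted. Rplp1 had a peak of 147 bp outside the gene, and Rplp2 the 542 bp peak over its start, which also overlaps the neighbouring gene Pidd1. Rpsa, the small-subunit protein also known as the laminin receptor, had peaks of 283 bp from 105 to 387 bp after its start and of 374 bp near its 3′ end. None of these 4 genes had a learning peak.

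A homecage peak lay in the 1 kb after the start at 29 of the 57 members with an annotated start. The share of other genes was not computed for that window, so this count alone shows no difference from them. Of the 57 members with an annotated start, 36 had a homecage peak within 1 kb of it (63.2%, 49.3 to 75.6%), compared with 52.6% of 16457 genes with a start and 45.4% of those of similar length. In the first 500 bases of the gene (0 to 499 from the start) 27 members had one (47.4%, 34.0 to 61.0%, all genes 36.5%, similar length 28.6%), and in the next 500 bases 20 did (35.1%, 22.9 to 48.9%, all genes 27.7%, similar length 22.9%). The difference from similar length was 18.7 points (5.36 to 32.4) in the first 500 bases and 12.2 points (-0.0198 to 25.9) in the next 500. On the upstream side the shares of similar length also lay within the members' intervals. A homecage peak was present in bases -500 to -1 at 9 members (15.8%, 7.48 to 27.9%, all genes 23.7%, similar length 20.6%) and in bases -1000 to -501 at 10 (17.5%, 8.75 to 29.9%, all genes 18.3%, similar length 17.1%). At 1000 to 1499 bases into the gene only 3 members had one (5.26%, 1.10 to 14.6%, all genes 16.6%, similar length 16.1%). Over the start base itself 2 members had a homecage peak (3.51%, 0.428 to 12.1%, all genes 13.6%, similar length 11.0%).

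**Figure D2:**
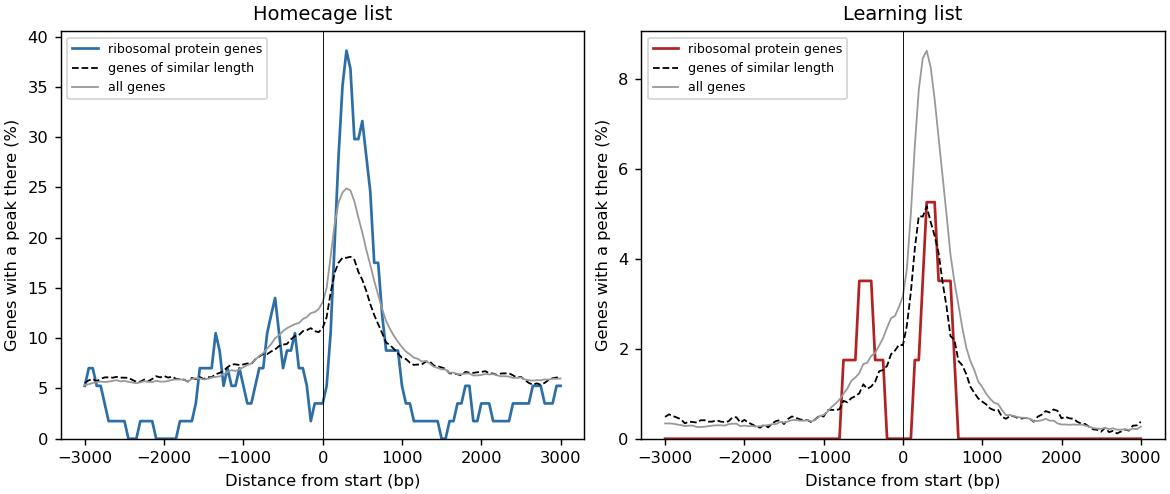
Percent of genes with a peak at each distance from the annotated start (x axis in bp, steps of 50 bp, negative upstream), for the homecage list (left) and the learning list (right, with its own scale). Coloured lines are the 57 ribosomal protein genes, dashed lines genes of similar length and grey lines all genes; in the homecage list the members reach 38.6% at 300 bp after the start and stand at 3.51% at the start itself.

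The homecage share of the members was highest 300 bp after the start, where 22 of 57 had a peak (38.6%), compared with 24.9% of all genes, and it stood above genes of similar length there. The members' share was 3.51% at the start, 35.1% at 250 bp, 17.5% at 650 bp and 5.26% at 1000 bp. In 25 members a homecage peak began 1 to 500 bp after the start, a count for which the share of other genes was not computed. These 25 peaks began at 34 to 482 bp, a range bounded by that choice, with a median of 176 bp. Their median far edge was 601 bp after the start. With windows of 3 kb on either side of the start the difference from genes of similar length was 3.10 points (-10.4 to 14.2), and with peaks of at least 500 bp it was -2.61 points (-11.4 to 9.75).

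Such peaks were found in genes of both subunits, and the following examples were chosen for their place after the start. At Rpl14 the homecage peak ran from 63 to 609 bp after the start, at Rpl23 from 72 to 589 bp, at Rps27 from 82 to 744 bp and at Rpl34 from 128 to 777 bp. At Rpl4, whose protein lines the exit tunnel of the ribosome, it ran from 132 to 563 bp. At Rpl5, which carries ribosomal RNA and binds the ubiquitin ligase Mdm2, it ran from 154 to 634 bp, and 2 more homecage peaks lay further inside the gene. Rpl37a had a peak from 199 to 684 bp, Rpl41 from 213 to 586 bp, Rps18 from 262 to 740 bp and Rps26 from 309 to 622 bp. Narrow peaks lay at the same place in Rpl38 (159 to 341 bp), Rpl15 (176 to 360 bp), Rps2 (206 to 371 bp), Rps15 (223 to 369 bp) and Rpl6 (246 to 447 bp). Other members had their homecage peaks further inside the gene, at 675 to 970 bp and 1918 to 2136 bp in Rps13, from 1575 bp in Rpl22, from 3356 bp in Rps24 and from 3828 bp in Rps7. Upstream of the start and with none in the first 1 kb of the gene were the peaks of Rpl18, Rpl19, Rps9, Rps10, Rps16, Rps21 and Rpl12. The peaks of Rpl18 and Rpl19 still lie inside the gene models of the RefSeq table, which begin before the start used here. The peaks of Rpl18 also overlap Sphk2, that of Rpl12 overlaps Lrsam1, and the more distant peak of Rpl19 overlaps Cacnb1. These cannot be assigned to the member rather than the neighbour.

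**Figure D3:**
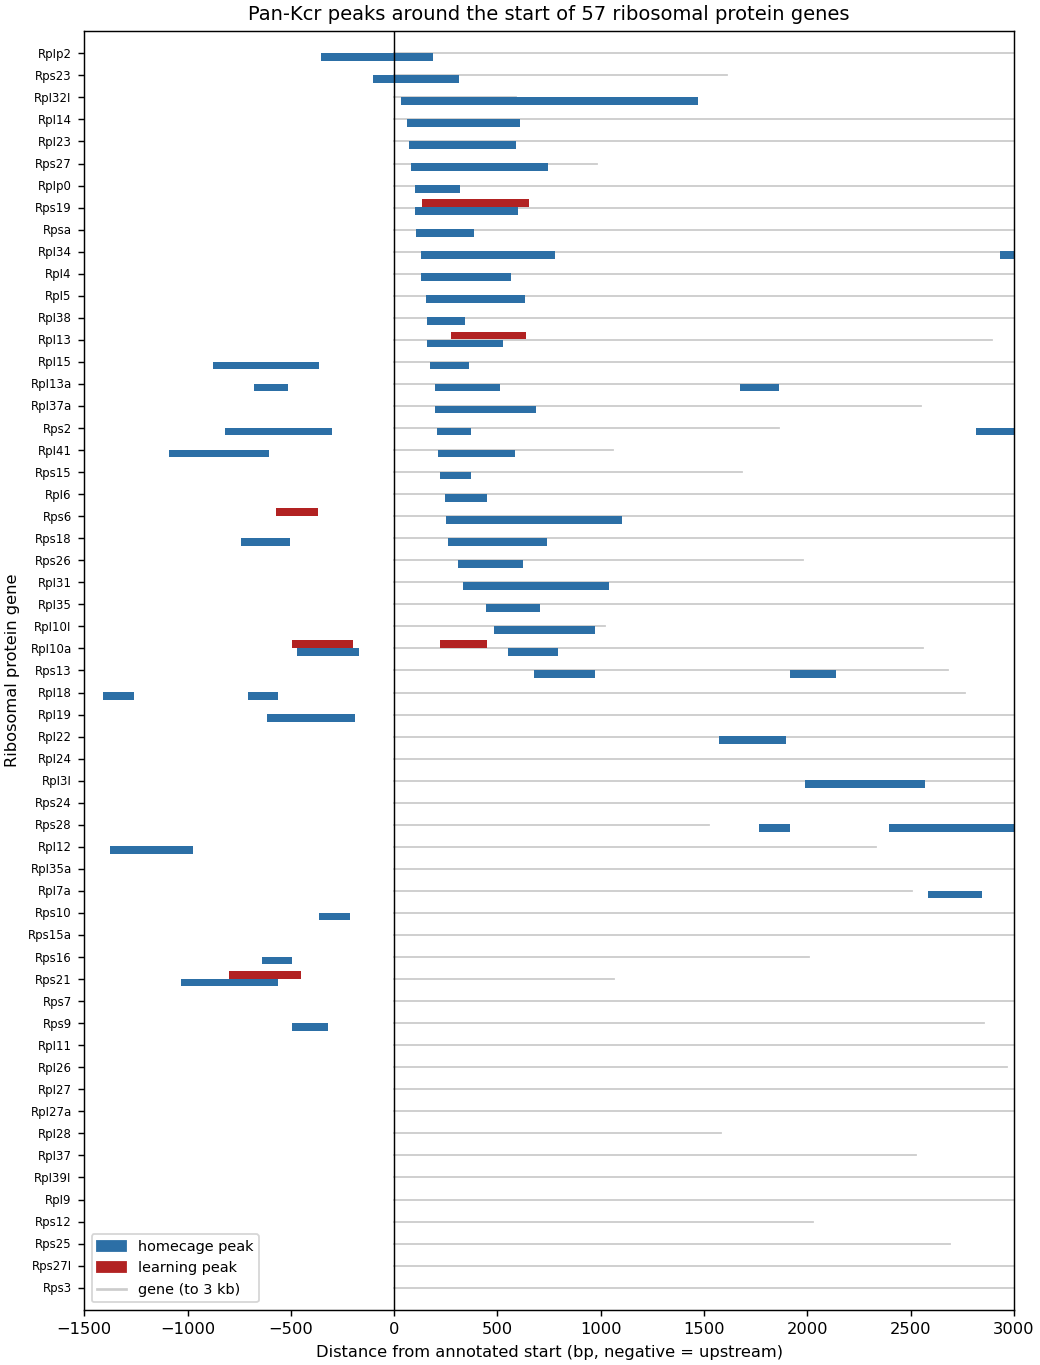
Peaks around the annotated start of the 57 ribosomal protein genes with one (rows), by distance from the start in bp (x axis), with homecage peaks in blue, learning peaks in red and the gene as a grey line up to 3 kb; rows are ordered by where the first homecage peak of the first 1 kb begins. Blue bars line up between about the start and 1000 bp in the upper 29 rows, and red bars appear in 5 rows; the learning peak of Rpl19 lies outside the range drawn.

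A learning peak was present at 12 of the 77 members (15.6%, 8.32 to 25.6%), compared with 28.5% of all autosomal protein-coding genes and 13.5% of genes of similar length, a difference of 2.04 points from the latter (-5.23 to 12.1). A difference from genes of similar length was not detectable in the learning list with this number of genes. Of the 12, 11 also had a homecage peak, so both lists had one at 14.3% of members (all genes 27.9%), 2.25 points from genes of similar length (-4.68 to 12.1). The homecage list alone had a peak at 51 members (66.2%, all genes 58.0%, similar length 53.4%), the learning list alone at 1 (1.30%, all genes 0.561%, similar length 1.51%) and neither list at 14 (18.2%, 10.3 to 28.6%, all genes 13.5%, similar length 33.1%). Small-subunit genes had a learning peak at 6 of 30 (20.0%, 7.71 to 38.6%, similar length 12.8%). Large-subunit genes had one at 6 of 47 (12.8%, 4.83 to 25.7%, similar length 14.1%). These intervals overlap, and each includes its share of similar length.

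The 12 members held 14 learning peaks, from 146 to 515 bp wide. Of the 14, 9 overlapped a homecage peak (64.3%, 35.1 to 87.2%), compared with 48.6% of the 8621 autosomal learning peaks in or within 1 kb of protein-coding genes. When the shared stretch had to cover 50% of each of the 2 peaks, 7 of the 14 qualified, compared with 17.2% of the 8621. Inside the genes lay 9 of the 14, and 5 lay outside. Among the 57 members with a start, 5 had a learning peak within 1 kb of it (8.77%, 2.91 to 19.3%, all genes 16.6%, similar length 10.8%), and 3 had one in the first 500 bases of the gene (5.26%, 1.10 to 14.6%, all genes 12.9%, similar length 7.89%). No learning peak covered the start base of a member.

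In 2 genes the learning peak lay over the homecage peak just after the start. Rps19, a small-subunit protein needed for ribosomal RNA maturation and mutated in Diamond-Blackfan anaemia, had the widest learning peak of the members, 515 bp (chr7:24884728-24885242), from 136 to 650 bp after the start. The homecage peak there was 499 bp wide and shared 466 bp with it. Rpl13 had a learning peak of 366 bp (chr8:123102623-123102988), 273 to 638 bp after the start, and a homecage peak of 365 bp that shared 253 bp with it. The lists thus held nearly the same stretch at Rps19 and a shifted one at Rpl13.

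Rpl10a had 2 learning peaks. Upstream of Rpl10a, the learning peak of 294 bp (chr17:28327977-28328270) and the homecage peak of 301 bp shared 269 bp. Inside Rpl10a, the learning peak of 230 bp (chr17:28328691-28328920) lay 220 to 449 bp after the start and the homecage peak of 241 bp at 552 to 792 bp, with a gap of 102 bp between them. The lists thus shared the stretch upstream of Rpl10a and not the one inside it.

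At Rps6, the small-subunit protein phosphorylated by the S6 kinases downstream of mTOR, the lists marked opposite sides of the start. The learning peak of 203 bp (chr4:86857736-86857938) lay at bases -571 to -369 from the start, and the homecage peak of 852 bp (chr4:86856265-86857116) ran from 251 to 1102 bp downstream, with 619 bp between them. At Rps21 a learning peak of 348 bp (chr2:180256580-180256927) and a homecage peak of 472 bp shared 238 bp upstream of the start. Rps21 had no peak inside the gene in either list.

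Learning peaks also overlapped a homecage peak at Rpl21, Rps20, Rpl7 and Rpl19. Rpl21 had a learning peak of 445 bp inside the gene (chr5:146833228-146833672) that shared 361 bp with a homecage peak of 457 bp. Rps20 had a learning peak of 239 bp (chr4:3835087-3835325) at the edge of a 1281 bp homecage peak, with 219 bp in common. That homecage peak crosses an end of the gene, and whether this is the 5′ or the 3′ end was not determined, since Rps20 has no start in the promoter table. At Rpl7 a learning peak of 291 bp outside the gene (chr1:16104905-16105195) met a homecage peak of 488 bp in only 3 bp, and Rdh10 is within 1 kb. The learning peak of Rpl19, 430 bp (chr11:98022258-98022687), lay at bases -4452 to -4023 from the start in the promoter table, inside the longer gene model of the RefSeq table, and it overlaps Cacnb1, a calcium channel subunit gene. That peak cannot be assigned to Rpl19 rather than Cacnb1.

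Rpl8, a large-subunit protein, was the only member with a learning peak and no homecage peak in its window. The learning peak, 146 bp (chr15:76904554-76904699), was the narrowest of the 14, and the nearest homecage peak lay 11911 bp away.

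Among the members with the widest homecage peaks were Rpl32l, Rps20, Rpl21, Rpl36, Rps6, Rpl29 and Rpl31. Rpl32l, the shortest member at 592 bp, had the widest, 1435 bp (chr10:20208473-20209907), which runs past the end of Rpl32l and also overlaps Map7. Rps20 had 1281 bp (chr4:3835107-3836387) and Rpl21 had 1163 bp (chr5:146835686-146836848), the second of these without a learning peak over it. Rpl36 had 1080 bp (chr17:56613458-56614537) across an end of the gene and into Lonp1. The widest peaks of Rpl29 (719 bp, chr9:106429922-106430640) and Rpl31 (707 bp, chr1:39368184-39368890) lay inside the genes, as did that of Rps6. Of these 7 genes, Rps20, Rpl21 and Rps6 had a learning peak.

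No peak of either list was present at 14 members. They were Rpl11, Rpl26, Rpl27, Rpl27a, Rpl28, Rpl30, Rpl32, Rpl37, Rpl39l, Rpl9, Rps12, Rps25, Rps27l and Rps3. Rpl11 is the partner of Rpl5 in binding Mdm2, and the 2 differed here, since Rpl5 had 3 homecage peaks. The 2 genes also differ in length, with 4040 bp for Rpl11 and 8498 bp for Rpl5, and the part of length was not tested. Rps3 sits where mRNA enters the ribosome and also acts in DNA repair. The median length was 3068 bp for the 15 members without a homecage peak and 3410 bp for the 62 with one. Their promoters had a median GC content of 60.0% (12 with a start) and 56.7% (45 with a start).

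Of 4 paralogues of ribosomal protein genes, with Rpl32l described above left apart, Rpl3l and Rpl10l had homecage peaks. Rpl3l, the muscle paralogue of Rpl3, had homecage peaks of 579 bp inside the gene and 642 bp across its 3′ end, the latter within 1 kb of Msrb1. Rpl10l, a testis paralogue, had a homecage peak of 488 bp, from 482 to 969 bp after its start. Rpl39l and Rps27l had no peak in either list. None of these 4 genes had a learning peak.

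Several members share their window or their sequence with other genes. Another protein-coding gene lay within 1 kb of 29 members and overlapped 12, and 17 of the 98 homecage peaks and 1 of the 14 learning peaks overlapped such a gene. Of the 48 members with no neighbour that close, 37 had a homecage peak (77.1%, similar length 66.1%, a difference whose interval includes 0). The gene table names pseudogenes of 58 members, up to 23 each for Rpl31 and Rps12, and how reads that match such copies were placed is not given in the sources used here. A homecage peak was present at 48 of these 58 members (82.8%) and at 14 of the 19 with no named pseudogene (73.7%, similar length 65.1%). Of the 269 autosomal pseudogenes named after members, with a median length of 537 bp, 89 had a homecage peak (33.1%, 27.5 to 39.1%) and 5 a learning peak (1.86%, 0.606 to 4.28%). For all autosomal pseudogenes of similar length the shares were 35.9% and 1.86%. The part of shared reads in the members' peaks was not tested. Within the bounds of 27 members lie 56 small nucleolar RNA genes. A homecage peak was present at 21 of these 27 members (77.8%) and at 41 of the other 50 (82.0%).

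**Figure D4:**
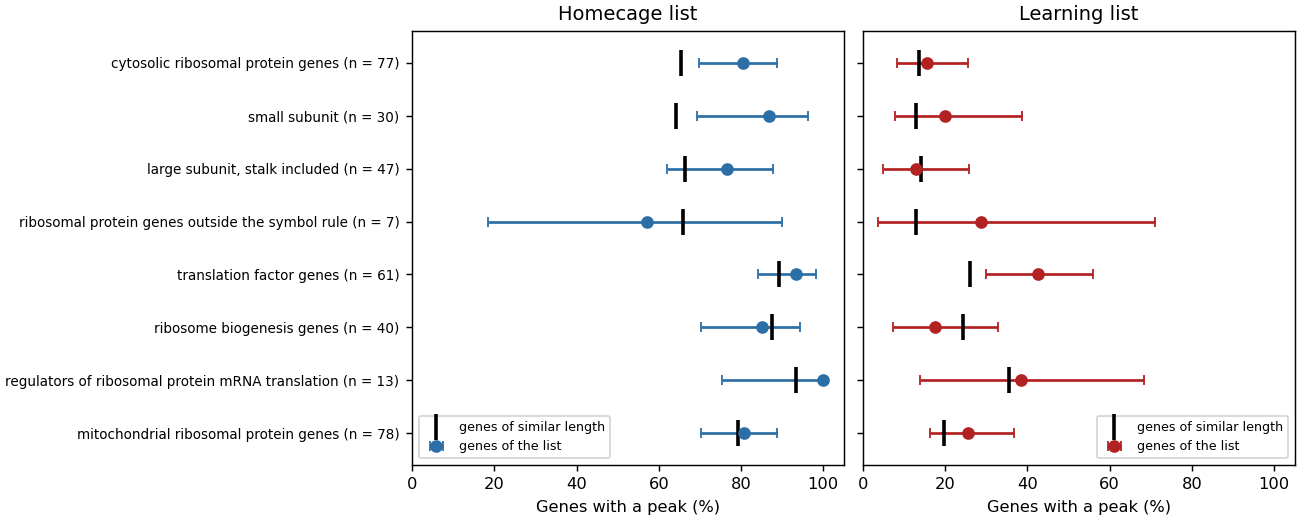
Percent of genes with a peak in the gene or within 1 kb (x axis) for ribosomal protein genes and related lists (rows), in the homecage list (left) and the learning list (right). Points are shares with exact 95% intervals, and black marks are genes of similar length; the cytosolic ribosomal protein genes lie at 80.5% against a mark at 65.4% in the homecage list and at 15.6% against 13.5% in the learning list.

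Genes whose products work with the ribosome were set beside the members with the same measure. The 78 mitochondrial ribosomal protein genes, which encode the separate ribosome of the mitochondria, had a homecage peak at 63 (80.8%, 70.3 to 88.8%, similar length 79.3%) and a learning peak at 20 (25.6%, 16.4 to 36.8%, similar length 19.6%). The homecage excess over similar length was thus 1.50 points in the mitochondrial genes and 15.1 points in the cytosolic ones, a difference that was not tested. The widest learning peaks of the mitochondrial list lay at Mrpl36 (709 bp), Mrps6 (582 bp), Mrpl40 (544 bp) and Mrpl37 (527 bp). The 61 translation factor genes had a learning peak at 26 (42.6%, similar length 26.1%) and a homecage peak at 57 (93.4%, 84.1 to 98.2%, similar length 89.2%). Their widest learning peaks lay at Eif1b (816 bp), Eif4a2 (555 bp), Eif4g1 (545 bp) and Eif4g2 (514 bp), members of the initiation machinery. In the learning list the translation factor genes stood 16.5 points above genes of similar length and the ribosomal protein genes 2.04 points. The difference between these 2 lists was not tested either.

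The 40 ribosome biogenesis genes had a learning peak at 7 (17.5%, 7.34 to 32.8%, similar length 24.2%) and a homecage peak at 34 (85.0%, 70.2 to 94.3%, similar length 87.6%), with the widest learning peaks at Ubtf (1535 bp), the RNA polymerase I factor, Taf1b (598 bp), Rrs1 (476 bp) and Utp4 (353 bp). Among 13 regulators of ribosomal protein mRNA translation, 5 had a learning peak (38.5%, 13.9 to 68.4%, similar length 35.6%), the widest at Rptor (417 bp), Akt1s1 (354 bp), Rps6ka1 (346 bp) and Rheb (283 bp), and all 13 had a homecage peak (75.3 to 100%, similar length 93.5%). Of 7 genes for ribosomal or ribosome-bound proteins that the symbol rule does not reach, 2 had a learning peak (28.6%, 3.67 to 71.0%, similar length 12.8%) and 4 a homecage peak (57.1%, 18.4 to 90.1%, similar length 65.8%). Fau, which encodes a ribosomal protein fused to a ubiquitin-like one, had a learning peak of 500 bp (chr19:6058096-6058595) and no homecage peak, and the same peak lies within 1 kb of Mrpl49. Rps3a1, Rpl36al and Rpl7l1 had a homecage peak and no learning peak, and Rack1 and Rpl22l1 had neither.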

How the data were processed

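Pan-Kcr ChIP-seq peak lists of 2 libraries were used, 1 learning and 1 homecage; the other 10 samples were not analysed here. Chromatin was sheared to fragments of 200 to 500 bp, per the labels. The deposited lists have 4 columns (sequence, start, end, name); other values, such as p-values or signal, are not in the columns used here. The authors called broad peaks at a p-value threshold of 0.01, per the peak names in the files. Trimmomatic, BWA, MACS2 and the build mm10 are named in the submitters' processing notes, without order or versions, and the use of input is not given in the sources used here. Depth is unknown.

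Gene positions came from RefSeq (GRCm38.p6, the same build as mm10), and starts, strands and promoter sequences from its promoter table, with the most upstream start per gene. A gene had a peak if at least 1 bp of it lay in the gene or within 1 kb. Genes of similar length were the non-member genes of the same of 10 length classes, weighted to the members. Intervals are exact Clopper-Pearson, 95%. No p-value was computed, since each condition has 1 library. The members, lists and comparisons were chosen with earlier results of these data known. The rule for named genes took all members with a learning peak, the 8 with the widest homecage peak, those with neither peak, the stalk genes, Rpsa and the paralogues Rpl3l, Rpl10l, Rpl39l and Rps27l, and up to 4 genes of each other list by learning peak width. Some genes that it takes are not reported here by name and stay in the counts. Other members, and other genes outside the symbol rule, were named after their values were seen. The functions were tested on simulated data. The software was Python 3.11.15 with pandas 2.3.3, numpy 2.4.6 and scipy 1.17.1; figures used matplotlib 3.10.9. Alternatives covered windows, length classes, promoter GC, neighbours, pseudogenes, peak width, merging and overlap.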

Additional observations from a re-analysis of the deposited data

How the results depend on the processing

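No paired analysis was possible because learning and homecage are single antibody libraries, and neither could be left out. A stricter threshold on p or q was not run because the columns used here carry none. Among 55 alternative values, 46 lay inside the interval of the reported value (for widths, the spread between members) and 9 outside it. The sign differed from the reported value in 8, 4 in each list. In the learning list, where the reported difference of 2.04 points has an interval that includes 0, it was -2.15 points with peaks of at least 500 bp, -4.72 points with length and promoter GC and -3.17 points for the members with a promoter entry. Set against all genes with no regard to length, the difference in percentage points was -5.39 in the homecage list and -12.9 in the learning list. A minimum width of 500 bp gave homecage differences from similar length of -3.85 points for the gene with 1 kb, -2.61 points for 1 kb around the start and 0.460 points for the first 500 bases. With the widest homecage peaks, as many as the learning list holds, it was -4.31 points, and with 3 kb around the start 3.10 points. The cause of these changes was not tested. The learning peaks of the members with a homecage peak within 1 kb were 92.9% (all genes 69.7%), and with a minimum of 500 bp in both lists 0 of 1 (0%, all genes 55.5%). Chosen after the data were seen were the backgrounds without olfactory and vomeronasal receptor genes (1330 of the 8189 genes in the members' length classes), with local peak density, with promoter GC at the start and with any annotated start, the member sets with a promoter entry or without paralogues, and all alternatives for the first 500 bases. Without the receptor genes the homecage difference was 15.4 points. Over the 57 members with a start it was 11.6 points (-1.21 to 21.3) in length classes alone. With length and promoter GC together it was 9.68 points (-3.15 to 19.4) over the same 57 members.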
